A study of Rattus norvegicus with 15 samples.

Results

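The hypoxia-inducible factor pathway was followed through 8 genes in cultured rat spermatogonial stem cells that lost and regained the growth factor GDNF. Epas1 and Hif1a encode the oxygen-regulated alpha subunits, Arnt their shared partner, Egln1 and Egln3 the prolyl hydroxylases that mark the alpha subunits, Vhl the protein that recognises the mark, and Vegfa and Bnip3 are established target genes. A probe set was taken as a member where the platform annotation gave it 1 gene symbol and that symbol was in the list, which selected 11 probe sets of the 31099 on the array and 8 of its 14218 named genes. The list was selected on the measured Epas1 intensities, which rose late after GDNF return, so the Epas1 values are given as a description with no test.

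All cultures were of rat spermatogonial stem cells, the germ cells that renew themselves and sustain spermatogenesis, and had spent 1 month in culture, serum-free and with GDNF, before treatment. Control cultures kept GDNF, withdrawal cultures went 18 h without it, and the 3 return groups had the same 18 h without GDNF and then 2, 4 or 8 h with GDNF again. Each of the 5 groups had 3 independent cultures, and RNA from each was labelled with biotin and hybridised to 1 array, 15 in all. Each value is a deposited linear intensity of a probe set, a group of probes for 1 transcript, log2 values were taken from it, and precision is limited by the 3 arrays in a group. The labels give no strain or age of the animals, and no dose of GDNF. Control cultures were collected without an 18 h interruption, so the return groups differ from them in history as well as in time with GDNF.

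Across all arrays, 50.2% to 50.5% of probe sets had an intensity of at least 16, the low-value level used here, and the correlation of log2 values within a group was 0.9939 to 0.9973. Of the 15 listed germ cell markers, 7 were above that level, namely Ret, Etv5, Sall4, Uchl1, Epcam, Id4 and Tex101. Gfra1, the GDNF co-receptor, was under it in every group (mean intensity 8.32 to 11.7), as were Lin28a (9.04 to 13.4) and Nanos3 (14.9 to 15.3). Zbtb16, Ddx4, Dazl, Nanos2 and Dnd1 had no probe set with 1 symbol, so their levels are not known. Markers of other cells were also present: 9 of 16 mesenchymal, 4 of 12 endothelial, 4 of 10 Sertoli, 1 of 10 Leydig or peritubular and 1 of 10 immune or blood genes passed the filter. Within their groups, replicate 1 of control, withdrawal and 4 h stood highest on the first principal component of the deviations from group means (0.323, 0.487 and 0.394). Results without these 3 arrays are given for Epas1 and wherever they change the call on another member. In RNA from a whole culture, fewer cells of a type and less RNA per cell cannot be told apart.

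Cells make the alpha subunits continuously and, in the presence of oxygen, hydroxylate and degrade them; when oxygen is low the subunits accumulate, pair with Arnt and switch on genes for blood vessel growth, glucose use and survival. Transcript levels of the alpha subunits therefore report only 1 layer of a pathway that is governed largely through protein stability. The Egln hydroxylases and Bnip3 are among the pathway's own targets, and growth factor signalling is known to act on Vegfa and on the alpha subunits in other cells.

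Promoters are shown for the members whose transcripts differed most among the groups, Epas1 and Vegfa, and for Bnip3, whose window held the most HIF core matches of the 8 genes. All are the 250 bases before a RefSeq start in build GRCr8, written 5′ to 3′ on the gene's strand, and all 8 members matched that table, Vegfa with 2 starts. Epas1 is the minus strand of chr6:13624730-13624979, Vegfa the plus strand of chr9:22452604-22452853, and Bnip3 the minus strand of chr1:203154963-203155212. Capitals mark matches to the HIF core (ACGTG or GCGTG, either strand) and to the EGR motif (GCGNGGGCG, either strand).
Epas1: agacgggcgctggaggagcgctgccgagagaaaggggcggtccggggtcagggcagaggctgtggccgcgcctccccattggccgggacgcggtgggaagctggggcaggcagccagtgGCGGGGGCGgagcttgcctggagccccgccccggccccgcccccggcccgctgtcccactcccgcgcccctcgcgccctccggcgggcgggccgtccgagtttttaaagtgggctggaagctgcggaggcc
Vegfa: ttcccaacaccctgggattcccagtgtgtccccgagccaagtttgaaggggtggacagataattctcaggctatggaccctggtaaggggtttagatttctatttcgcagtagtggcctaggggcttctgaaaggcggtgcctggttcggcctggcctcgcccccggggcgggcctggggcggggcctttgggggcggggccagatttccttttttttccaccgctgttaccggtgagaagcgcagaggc
Bnip3: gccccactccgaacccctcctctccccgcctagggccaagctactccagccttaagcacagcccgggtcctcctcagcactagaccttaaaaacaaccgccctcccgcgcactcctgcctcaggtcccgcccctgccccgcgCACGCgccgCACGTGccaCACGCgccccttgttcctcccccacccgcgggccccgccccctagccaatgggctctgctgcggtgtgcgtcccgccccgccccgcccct
The Epas1 window held 1 EGR match, starting at base -131 counted from the start, and no HIF core. Its start lies within the annotated gene, downstream of the gene's first annotated base. The same holds for the Hif1a start and for the Vegfa start whose window is not printed here. The Vegfa window held neither motif, and the window of the other Vegfa start held neither. Bnip3 had 4 HIF core matches, at -108, -99, -98 and -90, of which the pair at -99 and -98 is the palindrome CACGTG read on both strands. Among the other members, Hif1a had 3 HIF core matches, a palindrome at -229 and -228 and 1 match at -164. Arnt had 1 HIF core at -42, and Egln1 had 1 HIF core at -56 and 1 EGR match at -31. Vhl and Egln3 had none of these. ETS (CCGGAA) and AP-1 (TGANTCA) motifs, also searched on both strands, were in none of the members' windows. Over all 33469 windows of this length, 36.7% held a HIF core, 4.29% the EGR motif, 12.6% the ETS motif and 6.34% the AP-1 motif. A match is a description of these letters only.

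Epas1 encodes HIF-2alpha, the alpha subunit named for its abundance in endothelium. Its level fell by 1.44 on the log2 scale after 18 h without GDNF and stood at 5.42 times the withdrawal level after 8 h of return, above the level in control cultures. The control arrays of probe set 1398333_at read 137, 157 and 165, a mean of 153 ± 14.2 (SD, n = 3). Withdrawal arrays read 59.9, 53.2 and 56.1, a mean of 56.4 ± 3.37. These groups did not overlap, and the withdrawal level was 2.71-fold lower. After 2 h of GDNF the arrays read 69.9, 75.7 and 75.3, a mean of 73.6 ± 3.23 (SD, n = 3). At 4 h they read 175, 232 and 140, a mean of 183 ± 46.5, and at 8 h 308, 280 and 330, a mean of 306 ± 25.1. The lowest 2 h array lay above the highest withdrawal array, and every 8 h array lay above every other array in the study.

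**Figure D1:**
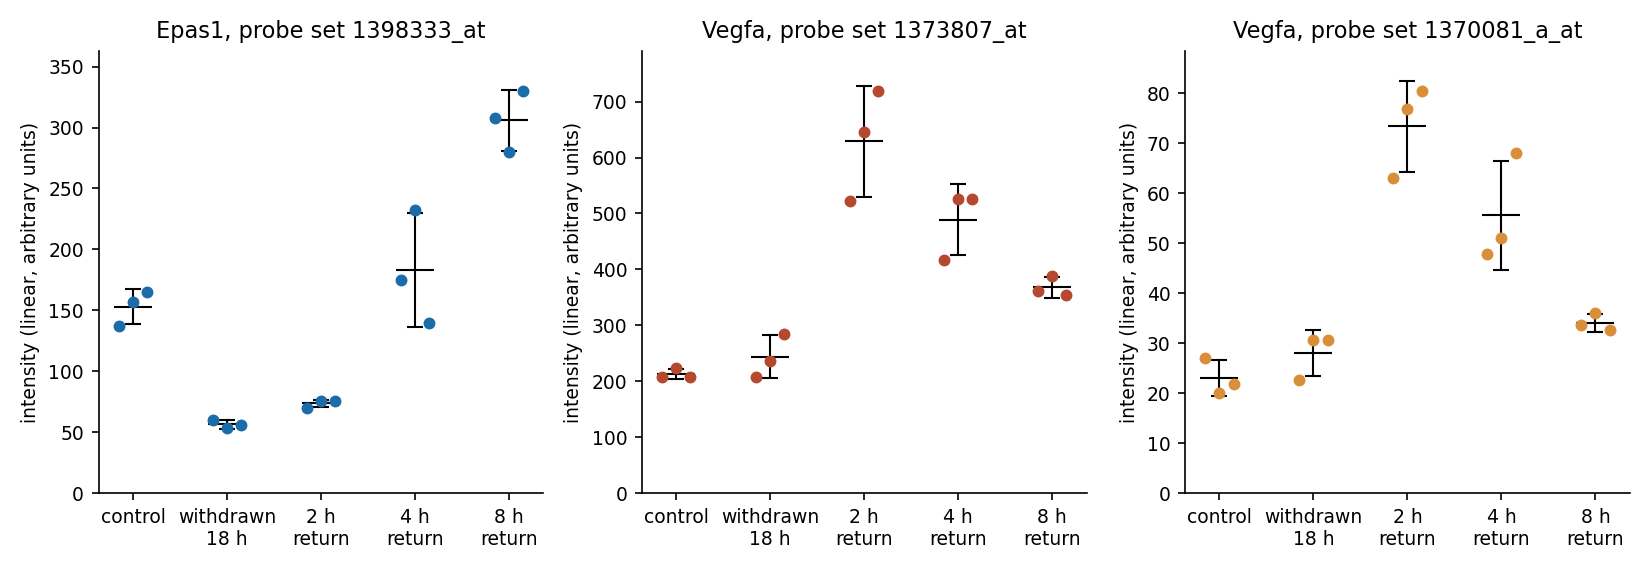
Deposited intensity (linear scale) of Epas1 probe set 1398333_at and of both Vegfa probe sets in the 5 groups; points are arrays and black bars the mean ± SD of 3. Epas1 climbs from 56.4 on withdrawal to 306 at 8 h, while Vegfa 1373807_at is highest at 2 h (629) and is at 368 by 8 h.

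Against withdrawal, Epas1 was 0.39 higher on the log2 scale at 2 h (1.31-fold), 1.67 higher at 4 h (3.18-fold) and 2.44 higher at 8 h (5.42-fold). These comparisons share the withdrawal arrays. At 8 h it was 2-fold above control and 4.15-fold above 2 h. From low to high the groups ran withdrawal, 2 h, control, 4 h and 8 h. Control and 4 h overlapped, since the highest control array (165) exceeded the lowest 4 h array (140), and the 4 h group had the widest spread. The other neighbours in that order did not overlap. Without replicate 1 of control, withdrawal and 4 h the differences were -1.56 on withdrawal, 0.43 at 2 h, 1.73 at 4 h and 2.48 at 8 h against withdrawal. A different Epas1 probe set, 1369703_at, stayed at 4.28 to 4.52 on all 15 arrays, under the low-value level, and gives no information on the pattern.

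Tests were made for 7 probe sets of 6 genes, all members except Epas1 and Egln3. Egln3 and a duplicate Egln1 probe set were under 16 on every array. A call means an adjusted p under 0.05 in limma with Benjamini-Hochberg adjustment over 15856 probe sets. On withdrawal 1 of the 7 was called higher (Bnip3) and none lower, against 21.1% of all probe sets called (11.4% higher and 9.67% lower). The Bnip3 call ended on removal of any 1 of 4 arrays, and 3 of the 7 did not overlap between the groups, against 34.3% of all. After 2 h of return 2 were higher and 2 lower, against 26.1% called (11.9% and 14.2%), and 4 did not overlap, against 42.7%. At 4 h 2 were higher and 3 lower, against 30.6% (14.6% and 16%), and 4 did not overlap, against 41.3%. At 8 h 1 was higher and 2 lower, against 25% (9.62% and 15.4%), and 5 did not overlap, against 40.9%. These shares lie on both sides of the background and rest on 7 probe sets.

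Compared with control, 8 h cultures had 2 member probe sets higher and 1 lower, against 12.3% of all probe sets called (4.83% higher and 7.49% lower), and all 7 were outside the control range, against 30.2%. Between 8 h and 2 h, 2 were lower and none higher, both of them Vegfa, against 26.2% called (11.8% higher and 14.4% lower), and 4 did not overlap, against 45.6%. The median log2 change of the 7 was 0.09 on withdrawal, -0.02 at 2 h, -0.16 at 4 h and -0.05 at 8 h of return. The medians over all tested probe sets were 0.01, -0.02, -0.01 and -0.02. All 7 passed the F test over the 5 groups, as did 49.6% of all probe sets. Without replicate 1 of control, withdrawal and 4 h, 2, 4, 5 and 3 of the 7 were called on withdrawal and at 2, 4 and 8 h against it, the extra call on withdrawal being a Vegfa probe set. The member genes moved in different directions at different times, with Vegfa up early while Bnip3 and Egln1 were down.

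**Figure D2:**
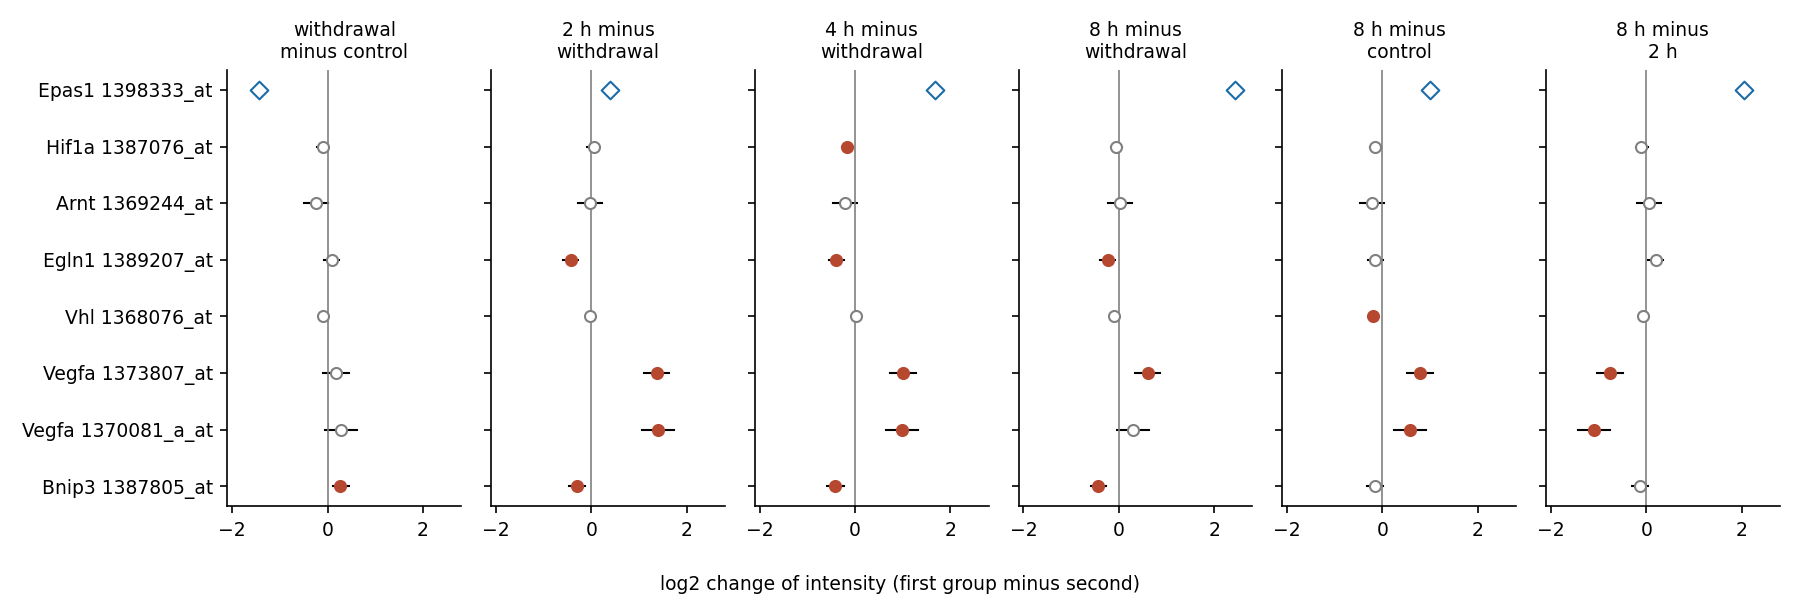
Log2 difference of each member in the 6 comparisons; filled red points passed limma at an adjusted p under 0.05, open grey points did not, lines are 95% confidence intervals, and open blue diamonds are Epas1, which has no test. Vegfa lies right of zero against withdrawal at 2 h (1.37 and 1.40), Bnip3 and Egln1 lie left of it, and Hif1a, Arnt and Vhl stay near zero.

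Hif1a, which encodes the other alpha subunit, HIF-1alpha, varied far less than Epas1, with group means spanning 0.26 on the log2 scale against 2.44 for Epas1. Control arrays read 3821, 3788 and 3737, and withdrawal arrays 3193, 3847 and 3584. The groups overlap, with the highest and the lowest of these 6 arrays both from withdrawal, and the difference of -0.10 (95% interval -0.22 to 0.02) missed the threshold (limma adjusted p = 0.245). The return groups had means of 3646 ± 127 at 2 h, 3157 ± 84.3 at 4 h and 3413 ± 178 at 8 h (SD, n = 3 each). The 4 h level was lower than withdrawal by 0.16 (interval -0.28 to -0.04, limma adjusted p = 0.0421), although the withdrawal array at 3193 lies inside the 4 h range. This call ended without withdrawal replicate 2 or 3 and without any 1 of the 4 h arrays, and under 4 of the other settings, with adjusted p up to 0.208. Relative to withdrawal Hif1a differed by 0.05 at 2 h (adjusted p = 0.593) and by -0.05 at 8 h (0.57). Relative to control, 8 h was -0.15 (0.105), and with the mean of mesenchymal markers as a covariate it was -0.18 and called (0.0175). Between 8 h and 2 h that covariate gave -0.25, also called (0.0278), where the fit without it gave -0.10 (0.238).

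Arnt, the partner that both alpha subunits need to bind DNA, was highest in control. Its arrays read 112, 97.4 and 104 there, 92.8, 85.2 and 86.1 on withdrawal, and 87.4, 77.4 and 95.3 at 2 h. The 4 h arrays were more spread, at 61.5, 80.5 and 87.8, and those at 8 h read 91, 91.6 and 87. Every control array lay above every other array, but the withdrawal difference of -0.25 (interval -0.50 to 0.00) had a limma adjusted p of 0.157, and no comparison was called. The F test over the 5 groups gave an adjusted p of 0.0467, which rose above 0.05 when any 1 of 12 arrays was left out, to as much as 0.133. Without replicate 1 of control, withdrawal and 4 h it was 0.253, with the mesenchymal marker mean as a covariate 0.0829 and with a replicate block 0.058.

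**Figure D3:**
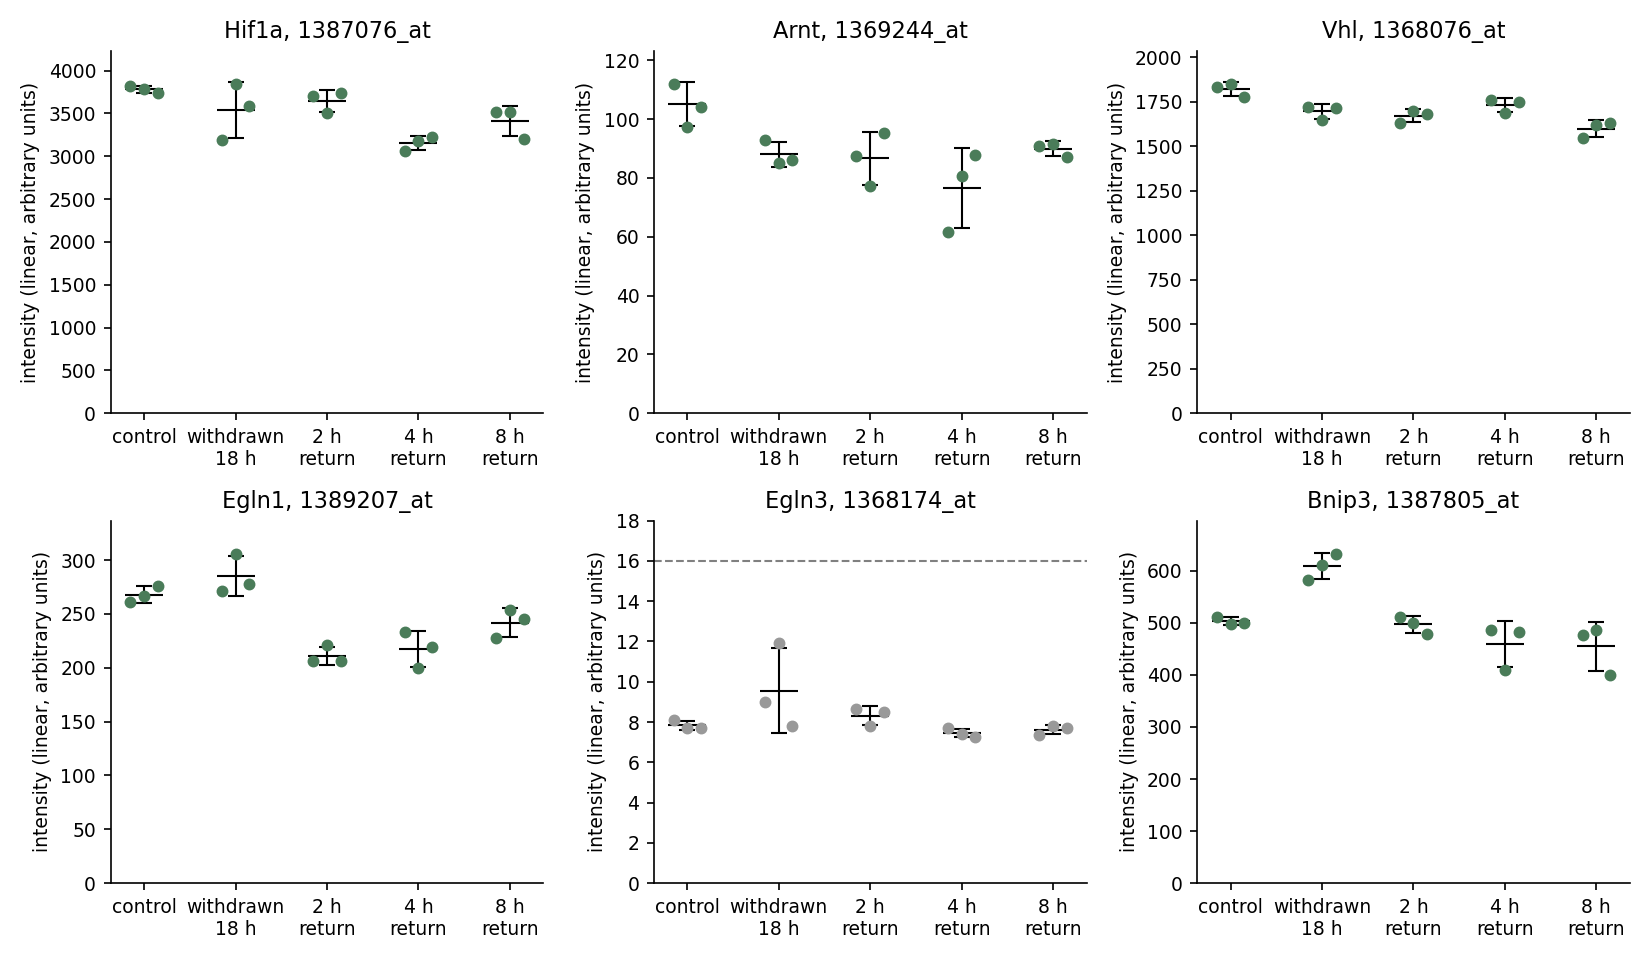
Deposited intensity (linear scale, from 0) of the other members in the 5 groups; points are arrays, black bars the mean ± SD of 3, and the dashed line in the Egln3 panel is the low-value level of 16. Bnip3 and Egln1 are highest on withdrawal and lower at 2 and 4 h, whereas Egln3 is under 16 on every array.

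Egln1 encodes PHD2, the main oxygen sensor among the hydroxylases. Its transcript fell on GDNF return, was lowest at 2 h and was intermediate at 8 h. Control arrays of 1389207_at read 261, 267 and 276, and withdrawal arrays 271, 306 and 278, so the groups overlapped (log2 difference 0.09, limma adjusted p = 0.442). At 2 h the arrays read 206, 221 and 206, all below every control and withdrawal array. At 4 h they read 233, 200 and 219, and at 8 h 228, 254 and 245. The fall from withdrawal was 0.43 on the log2 scale at 2 h (1.35-fold, SE 0.07, limma adjusted p = 0.000695) and 0.39 at 4 h (1.31-fold, 0.000903). At 8 h it was still lower by 0.23 (adjusted p = 0.0295). The 8 h call ended without withdrawal replicate 2 (0.127), 8 h replicate 1 (0.114) or 8 h replicate 3 (0.0603), and when arrays were centred on their medians (0.0698), quantile normalized (0.0642) or fitted in these groups only (0.0617). From 2 h to 8 h the difference was 0.20 with an adjusted p of 0.0578, which passed without 8 h replicate 1 (0.0468) and under 4 other settings (0.0322 to 0.0491). Its other probe set, 1375262_at, read 3.01 to 3.08 on all arrays.

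Egln3 encodes PHD3, a hydroxylase whose transcript is strongly induced by low oxygen in many cells. It was between 7.27 and 11.9 on the 15 arrays, under the low-value level throughout, with the single highest value in withdrawal replicate 2. No fold is given for it.

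Vhl supplies the recognition part of the ubiquitin ligase that removes hydroxylated alpha subunits. The control arrays read 1833, 1852 and 1780 and the 8 h arrays 1545, 1619 and 1632, with no overlap. The 8 h level was lower by 0.19 (1.14-fold, SE 0.04, limma adjusted p = 0.00396), and the adjusted p stayed between 0.00362 and 0.031 under the alternatives tried. Withdrawal arrays read 1721, 1649 and 1717, lower than control without overlap, but the difference of -0.10 had an adjusted p of 0.0604. The 2 h and 4 h groups, with means of 1672 ± 35.6 and 1731 ± 40.4 (SD, n = 3), overlapped withdrawal.

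Vegfa encodes vascular endothelial growth factor A, the signal that draws blood vessels to tissue. Its transcript rose on GDNF return and was highest at 2 h, when Epas1 was still below control, then lower at 4 h and 8 h. Control arrays of 1373807_at read 208, 223 and 208, and withdrawal arrays 208, 237 and 285. They overlapped, and the difference of 0.18 was not called (limma adjusted p = 0.342), although with the mesenchymal marker mean as a covariate it was 0.25 and called (0.0343). At 2 h the arrays read 522, 645 and 719, at 4 h 416, 526 and 525, and at 8 h 362, 389 and 354. Every return array lay above every control and withdrawal array, and the 2 h and 4 h groups overlapped each other.

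The rise over withdrawal in that probe set was 1.37 on the log2 scale at 2 h (2.58-fold, SE 0.12, limma adjusted p = 3.09e-06). At 4 h it was 1.01 (2.01-fold, 2.58e-05) and at 8 h 0.61 (1.52-fold, 0.00247). From 2 h to 8 h the level fell by 0.76 (1.7-fold, 0.00046), yet at 8 h it was above control by 0.79 (1.73-fold, 0.00082). Epas1 was 2.05 higher over the same interval, with no test.

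The other Vegfa probe set, 1370081_a_at, was dimmer and followed the same course. It read 27.1, 20.1 and 21.9 in control and 22.7, 30.7 and 30.6 on withdrawal. Of the alternatives run, only leaving out replicate 1 of control, withdrawal and 4 h gave a call on withdrawal (0.55, limma adjusted p = 0.031). At 2 h it read 63, 76.8 and 80.5, at 4 h 47.8, 51 and 68, and at 8 h 33.6, 36.1 and 32.7. Over withdrawal it was higher by 1.40 at 2 h (2.63-fold, limma adjusted p = 2.52e-05) and by 0.99 at 4 h (1.98-fold, 0.000279). The probe sets differed in calls at 8 h, when this one was higher than withdrawal by 0.30 (interval -0.04 to 0.64, adjusted p = 0.191). Its 8 h excess over control, 0.58 (adjusted p = 0.0275), ended without control replicate 2 or 3, without any 1 of the 8 h arrays (adjusted p 0.0561 to 0.0955), and without the filter on low values (0.0697).

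Bnip3, a mitochondrial protein that promotes the removal of mitochondria, is one of the most widely used readouts of HIF activity. It was lower than withdrawal on GDNF return, where Vegfa was higher. Its arrays read 512, 497 and 500 in control and 582, 612 and 633 on withdrawal. On return they read 512, 500 and 479 at 2 h, 487, 409 and 483 at 4 h, and 477, 487 and 400 at 8 h. All 3 withdrawal arrays lay above all other 12. The withdrawal rise was 0.27 (1.21-fold, SE 0.08, limma adjusted p = 0.0209), and the call ended without control replicate 2 or 3 (0.0597 and 0.0545) or withdrawal replicate 2 or 3 (0.0594 and 0.0694).

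Against withdrawal Bnip3 fell by 0.29 at 2 h (limma adjusted p = 0.0129), by 0.41 at 4 h (1.33-fold, 0.00108) and by 0.43 at 8 h (1.34-fold, 0.00105). The 2 h call ended without 2 h replicate 3 (0.0509) and with the mesenchymal marker mean as a covariate (0.0717). By 8 h every array lay below every control array, but the difference of -0.15 was not called (adjusted p = 0.238). Across the return groups the ranges overlapped.

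Of 18 further HIF regulators 14 were tested. On withdrawal 1 was higher and 1 lower, at 2 h 1 higher and 2 lower, and at 4 h and 8 h of return limma called none in either direction, with 1 and 2 lower at an unadjusted p under 0.05. Of all probe sets, 21.1%, 26.1%, 30.6% and 25% were called in these comparisons. At 8 h 1 was lower than control, where 12.3% of all probe sets were called. Between 8 h and 2 h 2 were higher and 1 lower, where 26.2% of all were called. Cited2, which competes with HIF for the co-activators p300 and CBP, fell from 503 ± 43.3 in control to 321 ± 6.33 on withdrawal (SD, n = 3), 1.56-fold with a limma adjusted p of 0.000211. It was lower again at 2 h (244 ± 32, 1.32-fold, 0.00671) and at 8 h was 1.56-fold below control (322 ± 5.4, 0.000503). Its other probe set agreed on withdrawal (-0.69) and at 8 h against control (-0.86) but was not called at 2 h (adjusted p = 0.116). The 2 h fall was not called with the mesenchymal marker mean as a covariate (0.0688).

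Siah2, a ubiquitin ligase that degrades prolyl hydroxylases, rose from 44.1 ± 2.94 on withdrawal to 65.2 ± 11.5 at 2 h (1.47-fold, limma adjusted p = 0.00738). With the mesenchymal marker mean as a covariate its adjusted p was 0.063. Elob, a subunit of the Vhl ligase, fell 1.12-fold at 2 h (0.00231) and was 1.1-fold higher at 8 h than at 2 h (0.00495). Crebbp, the co-activator CBP, was 1.16-fold higher on withdrawal (0.0199), a call that ended without control replicate 1 or 3 or withdrawal replicate 2, and 3 of its 4 other probe sets were not called. Cul2, the scaffold of the Vhl ligase, was 1.28-fold lower at 8 h than at 2 h (0.00556). With no call at 4 h or 8 h against withdrawal, the smallest p-values belonged to Usp20 and Crebbp at 4 h (-0.29 and 0.11, adjusted p = 0.0583 and 0.16) and to Cul2 and Usp20 at 8 h (-0.21 and -0.27, 0.0805 and 0.0846). The other Cul2 probe set was also lower at 8 h than at 2 h (-0.53, limma adjusted p = 0.00226). At 8 h against withdrawal that probe set lay in the opposite direction (0.23, 0.131).

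Among the HIF targets outside glycolysis, 23 of 34 were tested, and they were called in both directions. On withdrawal 8 were higher and 3 lower, where 11.4% of all probe sets were higher and 9.67% lower. Against withdrawal 3 were higher and 8 lower at 2 h (11.9% and 14.2% of all), 5 higher and 9 lower at 4 h (14.6% and 16%), and 3 higher and 10 lower at 8 h (9.62% and 15.4%). At 8 h 2 were higher and 6 lower than control (4.83% and 7.49% of all), and 2 higher and 7 lower than at 2 h (11.8% and 14.4%). The median changes on withdrawal and at 2, 4 and 8 h against it were 0.04, -0.17, -0.08 and -0.19, beside 0.01, -0.02, -0.01 and -0.02 over all tested probe sets. Without control replicate 2 the 8 on withdrawal became 5, and without withdrawal replicate 2 the 8 lower at 2 h became 4.

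Adm, Bhlhe40 and Hmox1 were the 3 targets that were lower on withdrawal, and all 3 were called higher at each return time. The Adm call at 8 h against withdrawal (0.34, limma adjusted p = 0.017) ended without 8 h replicate 1 or 2 (0.0698 and 0.079), without replicate 1 of control, withdrawal and 4 h (0.0584), and when only these groups were fitted (0.0658). Bhlhe40, a transcriptional repressor, read 102 ± 3.88 in control, 35.1 ± 9.63 on withdrawal, 93.9 ± 6.35 at 2 h, 140 ± 15.6 at 4 h and 110 ± 11.1 at 8 h (SD, n = 3 each). Its fall was 2.98-fold and its rises 2.74-fold, 4.06-fold and 3.19-fold (limma adjusted p = 3.16e-06, 9.64e-06, 1.32e-07 and 1.54e-06). Hmox1, heme oxygenase, read 525 ± 8.12 in control, 361 ± 12.1 on withdrawal, 529 ± 17.9 at 2 h, 931 ± 41.3 at 4 h and 611 ± 28.5 at 8 h. The peak was at 4 h, 2.58-fold over withdrawal (limma adjusted p = 9.44e-11). Adm, the vasodilator adrenomedullin, read 139 ± 6.06 in control, 67.6 ± 0.726 on withdrawal, 113 ± 9.14 at 2 h, 129 ± 3.06 at 4 h and 85.8 ± 11 at 8 h. At 8 h it was 1.62-fold below control (limma adjusted p = 0.000231).

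Like Bnip3, P4ha1, Mxi1, Ccng2 and Plin2 were called higher on withdrawal and lower at all 3 return times. P4ha1, a collagen prolyl hydroxylase, was named after its values were seen, and none of its calls held in every setting. Each ended without withdrawal replicate 2 (adjusted p 0.0512 to 0.152). On withdrawal its call also ended without control replicate 2 (0.0733). At 4 h it ended without withdrawal replicate 1 or 4 h replicate 2 or 3 as well, and at 8 h without withdrawal replicate 1 or 8 h replicate 2 or 3, with adjusted p up to 0.195 and 0.131 over 7 and 8 settings. Mxi1, an antagonist of Myc, read 429 ± 38.1 in control, 586 ± 34 on withdrawal and 363 ± 38.8 at 2 h (1.62-fold lower, limma adjusted p = 0.000103). Plin2, a coat protein of lipid droplets, read 291 ± 6.05, 379 ± 15 and 330 ± 7.45 in those groups and 239 ± 19.6 and 236 ± 13.9 at 4 h and 8 h. Its fall from withdrawal was 1.59-fold at 4 h and 1.6-fold at 8 h (2.95e-06 and 3.77e-06). The 2 h call on Plin2 (-0.20, 0.0384) ended under 10 settings, among them without withdrawal replicate 1 or 2 or any 1 of the 2 h arrays, with adjusted p up to 0.217. Ccng2, a cyclin linked to cell cycle arrest, was 1233 ± 57.5 on withdrawal and 797 ± 57.9 at 8 h, 1.55-fold lower (4e-06) and 1.25-fold below control. The other Mxi1 probe set had a 2 h change of -0.33 (adjusted p = 0.0571).

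Ddit4, an inhibitor of mTORC1 induced by hypoxia and stress, followed neither of these courses. It rose from 816 ± 15.7 to 1192 ± 14.8 on withdrawal (1.46-fold, limma adjusted p = 7.95e-07), and read 986 ± 39.2 at 2 h, 1348 ± 43.6 at 4 h and 985 ± 49.1 at 8 h. Angptl4, which inhibits lipoprotein lipase, was 63.1 ± 4.92 at 2 h and 208 ± 19.2 at 8 h, 3.29-fold higher (0.000422). With the mesenchymal marker mean as a covariate the Angptl4 change was 0.65 on the log2 scale in place of 1.72 (adjusted p = 0.0698). Tfrc, the transferrin receptor, was 1.18-fold lower at 8 h than at 2 h (0.000268) and 1.15-fold below control (0.00294). Ankrd37 was 1.45-fold lower at 8 h than at 2 h (0.00276), and neither it nor Tfrc was called in the comparison of 8 h with 2 h with that covariate (0.134 and 0.0545). Ankrd37 was also 1.52-fold higher on withdrawal (limma adjusted p = 0.00138). Against withdrawal it was lower at 4 h (0.00103) and 8 h (0.000122) but not called at 2 h (0.1).

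HIF targets of glucose uptake and glycolysis, 16 of 19 tested, moved in both directions. On withdrawal 2 were higher and 6 lower (11.4% and 9.67% of all probe sets). Against withdrawal 1 was higher and 5 lower at 2 h (11.9% and 14.2% of all), 2 higher and 6 lower at 4 h (14.6% and 16%), and 2 higher and 5 lower at 8 h (9.62% and 15.4%). At 8 h 1 was higher and 4 lower than control (4.83% and 7.49% of all), and 3 higher and 2 lower than at 2 h (11.8% and 14.4%). Their median change was between -0.12 and -0.09 on withdrawal and at 2, 4 and 8 h against it. Without control replicate 3 the 6 lower on withdrawal became 3, and without any 1 of the 2 h arrays the 5 lower at 2 h became 3, as they did without withdrawal replicate 3; without withdrawal replicate 2 they became 2.

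The glucose transporters were the members of that list that rose on return. Slc2a3 (GLUT3) read 202 ± 11.1 in control, 121 ± 23.8 on withdrawal, 145 ± 17.4 at 2 h, 351 ± 47.5 at 4 h and 338 ± 33.1 at 8 h. The change at 2 h was not called (limma adjusted p = 0.143), while 4 h was 2.92-fold (6.4e-07) and 8 h 2.83-fold above withdrawal (1.38e-06). At 8 h it was 1.67-fold above control (0.00213). Slc2a1 (GLUT1) was already 1.4-fold higher at 2 h, 115 ± 10.3 against 82.7 ± 15.9 (0.00754), a call that ended when only these groups were fitted (0.0519).

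Every enzyme of the list that was called on return against withdrawal was lower. Pfkfb3, which makes the activator of phosphofructokinase, read 30.7 ± 0.402 in control, 48.2 ± 6.62 on withdrawal, 31.9 ± 2.28 at 2 h, 32.4 ± 2.55 at 4 h and 30.7 ± 0.431 at 8 h. It was higher on withdrawal (1.56-fold, limma adjusted p = 0.000423) and lower at each return time. Tpi1, triosephosphate isomerase, read 425 ± 16.4 in control, 366 ± 4.53 on withdrawal, 352 ± 9.95 at 2 h, 280 ± 9.21 at 4 h and 239 ± 11.7 at 8 h, 1.78-fold below control (2.64e-07). Pgk1 fell 1.23-fold on withdrawal (0.00114) and was 1.24-fold below control at 8 h (0.00149), though its other probe set was not called (0.13 and 0.352). Hk2, hexokinase, was 1.5-fold below control at 8 h (500 ± 31.2 against 755 ± 101, 0.00101). Aldoc was 1.64-fold below withdrawal at 8 h (0.00145), and Pdk1, which holds pyruvate back from mitochondria, 1.28-fold below it at 4 h (0.00103). The other Pdk1 probe set was lower by 1.00 on the log2 scale there (2.9e-05), beside -0.36 for the brighter one.

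Smaller changes were seen in Gpi and Pgam1. Gpi was 1.13-fold higher on withdrawal (limma adjusted p = 0.00759) and 1.12-fold lower at 2 h (0.0106), the latter ending without withdrawal replicate 2 (0.0567). Pgam1 was 1.14-fold lower at 2 h (0.00156) and 1.2-fold higher at 8 h than at 2 h (8.11e-05). Aldoa was 1.4-fold higher at 8 h than at 2 h (0.000704) but not with the mesenchymal marker mean as a covariate (0.126).

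**Figure D4:**
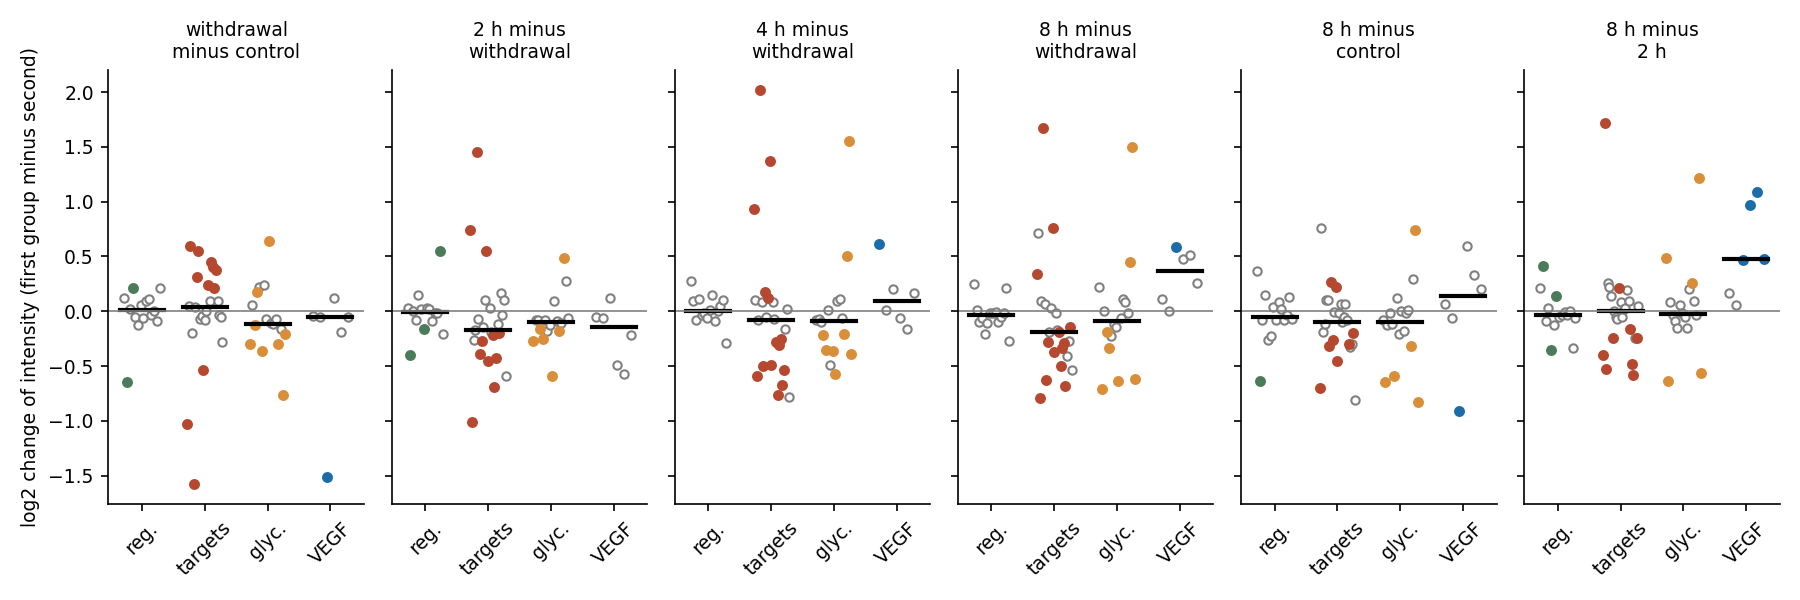
Log2 change of each tested gene of the 4 pathway lists in the 6 comparisons; dots are genes, filled where limma gave an adjusted p under 0.05, and black bars are list medians (reg., further HIF regulators; targets, HIF targets outside glycolysis; glyc., glucose uptake and glycolysis; VEGF, VEGF family and receptors). Regulators cluster near zero, while targets outside glycolysis spread both ways around medians of 0.04 on withdrawal and -0.19 at 8 h of return. Kdr is drawn in the VEGF list, though every group except control was under 16.

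Vegfa acts through receptors that were also measured, 6 of 9 genes of the VEGF family and receptor list. Kdr, the main signalling receptor, averaged 21.8 ± 1.99 in control and 7.66 ± 0.73 on withdrawal, 8.33 ± 0.645 at 2 h, 8.76 ± 0.0179 at 4 h and 11.5 ± 0.685 at 8 h (SD, n = 3 each). All groups except control were under the low-value level and the probe set passed the filter through control alone, so its values are a description, with no test and no fold. Flt1, the receptor that also acts as a decoy, rose 1.53-fold at 4 h, from 125 ± 4.68 to 191 ± 6.67 (limma adjusted p = 5.08e-05), and was 120 ± 8.46 at 2 h and 135 ± 14 at 8 h. Of its other probe sets, 1 was called at 4 h (0.41, adjusted p = 0.0129) and 1 was not (0.35, 0.0822).

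Between 2 h and 8 h of return Vegfc, Nrp1 and Nrp2 were called higher, and Flt1 and Flt4 were not called (11.8% of all probe sets were higher and 14.4% lower). Kdr, with both groups under 16, is left out here. Vegfc rose from 172 ± 13 to 239 ± 8.93 (1.39-fold, limma adjusted p = 0.00249), Nrp1 from 64.2 ± 7.64 to 125 ± 13.9 (1.96-fold, 0.00707) and Nrp2 from 44.1 ± 3.2 to 95.1 ± 22 (2.12-fold, 0.00397). The neuropilins Nrp1 and Nrp2 are co-receptors for VEGF that stromal cells also express. With the mesenchymal marker mean as a covariate these 3 differences were 0.21, 0.12 and 0.18 on the log2 scale and none was called (adjusted p = 0.29, 0.761 and 0.604). At 2 h against withdrawal limma called none of the list, with 2 lower at an unadjusted p under 0.05, the smallest p-values being those of Nrp2 (-0.57, adjusted p = 0.0924) and Vegfc (-0.22, 0.114). Nrp2 was called lower there with a replicate block (0.0335), with array weights (0.0231), without withdrawal replicate 1 (0.0317) and without replicate 1 of control, withdrawal and 4 h (0.0187).

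Markers of mesenchymal cells moved along part of the same course as Epas1. Their mean log2 intensity over 9 genes was 8.34 in control (arrays 8.21 to 8.58), 8.24 on withdrawal (7.80 to 8.53), 7.77 at 2 h (7.64 to 7.89), 8.09 at 4 h (7.82 to 8.27) and 8.48 at 8 h (8.35 to 8.63). From 2 h to 8 h 7 of the 9 were called higher and none lower (11.8% and 14.4% of all probe sets). Single markers departed from the mean: Pdgfra, Dcn and Fbn1 were highest in control (907, 261 and 987), Col3a1 on withdrawal (210) and Twist1 at 4 h (147). The control and withdrawal ranges of the marker mean overlapped. With the marker mean as a covariate the Epas1 difference between 8 h and 2 h was 2.16, against 2.05 without it. The ranges of the marker mean at 2 h and 8 h did not overlap, so the covariate cannot be separated from these groups. Whether mesenchymal cells account for the Epas1 course was not tested. Pdgfrb, Col6a1, Col6a2, Lum, Postn, Fap and Twist2 were under 16 in every group.

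Endothelial markers bear on Epas1, which endothelial cells express. Of the list, Tek, Tie1, Cldn5, Emcn, Vwf and Esam were at mean intensities of 3.82 to 5.76 in every group, under the low-value level. Pecam1, Egfl7 and Flt1 were above that level in every group, at 42.4 to 51.9, 69 to 98 and 120 to 191. Cdh5 and Robo4 had no probe set with 1 symbol. The mean log2 of the 4 that passed, Pecam1, Egfl7, Kdr and Flt1, was 5.86 in control (5.82 to 5.92), 5.44 on withdrawal (5.42 to 5.46), 5.44 at 2 h (5.42 to 5.48), 5.67 at 4 h (5.62 to 5.70) and 5.62 at 8 h (5.55 to 5.66). The fall of this mean on withdrawal came mostly through Kdr, which read 21.8 in control and 7.66 on withdrawal, where Egfl7 read 98 and 76.7, Pecam1 42.4 and 48.3 and Flt1 129 and 125. Kdr passed the filter through control alone and was under the low-value level in every other group. No change of endothelial markers is therefore read from this mean. Kdr and Flt1 are in the receptor list as well. Germ cell markers had means between 10.74 and 10.93 in the 5 groups, with single markers called in both directions. Of the 7 tested, 2 were called higher and 4 lower on withdrawal (11.4% and 9.67% of all probe sets). At 4 h against withdrawal 4 were higher and 1 lower (14.6% and 16% of all). Ret read 3779 on withdrawal and 1932 at 4 h, and Sall4 644 and 921. Sertoli markers lay between 7.65 and 7.84, Acta2 between 6.41 and 6.68, and Cd3e between 8.15 and 8.29.

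**Figure D5:**
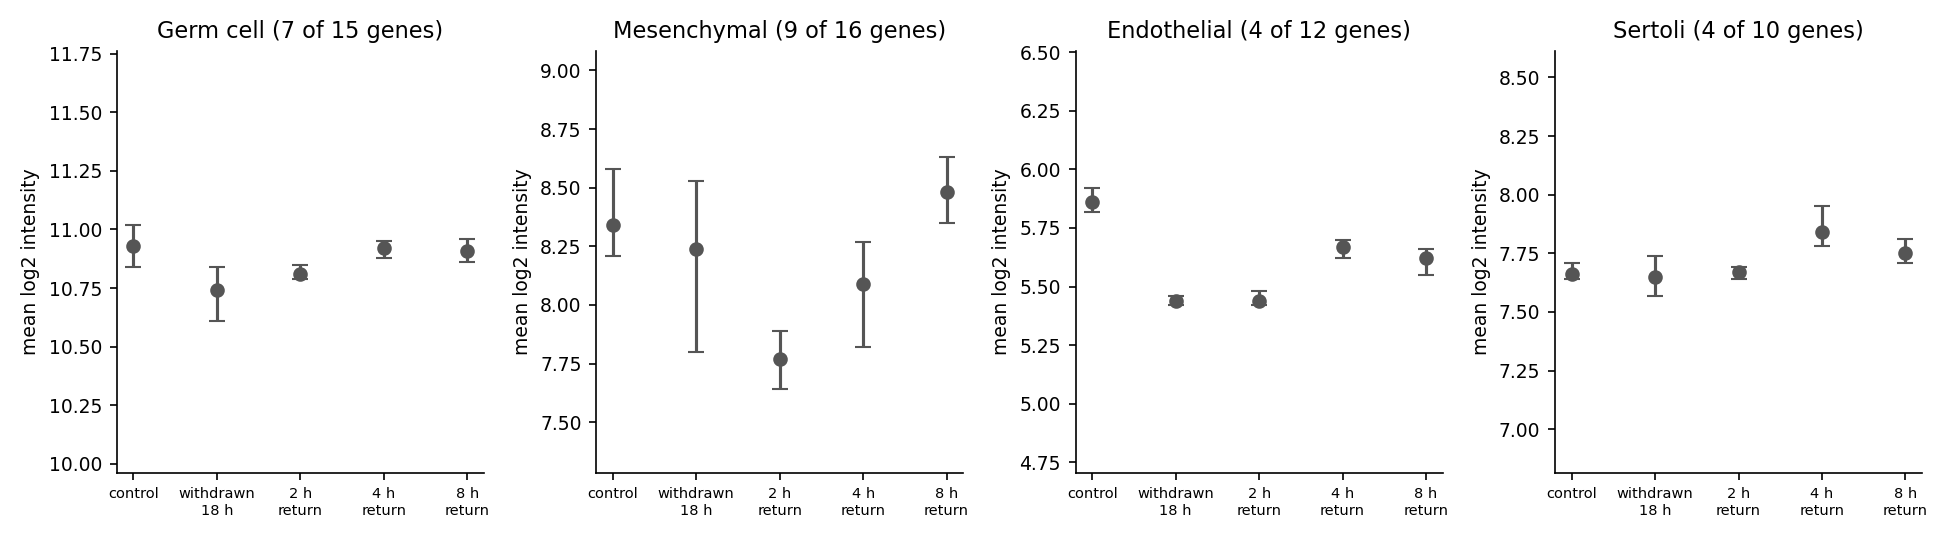
Mean log2 intensity of the tested markers of each cell type in the 5 groups; dots are group means and bars run from the lowest to the highest of 3 arrays, with each vertical axis spanning the same 1.8 log2 units and not starting at 0. The mesenchymal mean is lowest at 2 h (7.77) and highest at 8 h (8.48), while the germ cell mean lies between 10.74 and 10.93 in every group. The endothelial mean includes Kdr, which was under the low-value level in every group except control.

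The genes whose pattern was most like that of Epas1 were found by the root mean square difference of log2 intensity over the 15 arrays, each gene centred on its mean, among 8959 genes. Epas1 itself varied by 0.90 about its mean on this measure. The 5 nearest were Upk1b (0.30), Fcgr3a (0.34), RT1-T24-4 (0.36), Anxa3 (0.37) and Tkt (0.38). For 2 of these the likeness rests partly on values under 16. Anxa3 had means of 9.27 on withdrawal and 10.8 at 2 h, and RT1-T24-4 a mean of 14.7 on withdrawal. Upk1b, a uroplakin, had means of 333 ± 28.4 in control, 110 ± 5.87 on withdrawal, 120 ± 17.1 at 2 h, 254 ± 33.8 at 4 h and 410 ± 10.3 at 8 h. Tkt, transketolase of the pentose phosphate pathway, had means of 107 ± 8.64, 49.8 ± 17.8, 41.9 ± 0.794, 96.2 ± 17 and 162 ± 18.7 in the same order. Both were lowest on withdrawal or at 2 h and highest at 8 h.

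For Vegfa the same measure gave Sertad1 (0.25), Hes1 (0.25) and Mideas (0.27), beside a variation of 0.60 of Vegfa about its own mean. Hes1, a transcriptional repressor downstream of Notch, had means of 768 ± 62 in control, 747 ± 30 on withdrawal, 1784 ± 39.7 at 2 h, 1656 ± 136 at 4 h and 869 ± 49.4 at 8 h (SD, n = 3 each). Sertad1 had means of 129 ± 9.41, 116 ± 16.9, 292 ± 23.7, 262 ± 24.9 and 158 ± 11.1 in that order. Both stood high at 2 h and 4 h, with control and withdrawal close together. No test was made on these likenesses, which share all arrays with the genes they describe.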

How the data were processed

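RNA from 15 cultures was measured on single-colour arrays, and the authors deposited 1 table of probe set intensities on a linear scale. GCRMA and Partek 6.3 are named in the submitters' processing notes, without role or order. Probe-level background correction of the GCRMA kind sets the lowest values, so intensities under 16 carry little information. Log2 was taken with no further normalization. Of 31099 probe sets, 57 controls were left out and 15856 (51%), of 9002 named genes, were tested, those with log2 of at least 4 on at least 3 of 15 arrays. Symbols come from the platform annotation (20832 probe sets with 1 symbol, 436 with several, 9831 with none) and 20764 matched a RefSeq GRCr8 gene table. No genome build or probe position is given in the sources used here. A gene in a list is its brightest tested probe set over all arrays. 

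The group means entered lmFit and eBayes (intensity trend) of limma 3.58.1, R 4.3.3, the 15 arrays sharing 1 spread, and p-values were two-sided and adjusted by Benjamini-Hochberg in each of 6 comparisons and an F test over the 5 groups. The scripts were tested on simulated data. The members and lists were chosen with earlier results of these data known. Named genes are all members and, per list and comparison, up to 4 called genes with the smallest adjusted p (up to 2 as values where none was called), with the 5 genes most like Epas1 and 3 most like each other member spanning at least 1 log2. Alternatives were the filter, a floor or offset of 16, centring, quantile normalization, no trend, array weights, fitting only the groups compared, a replicate block and leaving out each array. Chosen after seeing the data were leaving out replicate 1 of control, withdrawal and 4 h together, and the mesenchymal marker mean as a covariate. Listed genes outside this rule, called ones included, enter the counts and medians of their list and are mostly not named. Listed genes that did not pass the filter, or had no probe set with 1 symbol, were not tested.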

Additional observations from a re-analysis of the deposited data

Results flagged for a closer look

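The genes here are the members and, from each pathway list, the up to 4 genes with the smallest adjusted p, whose change over withdrawal differed between 8 h and 2 h of GDNF return. Other listed genes were also called in this comparison and are counted with their lists. Limma tested it as the difference of the return groups themselves (adjusted p under 0.05). Values are 8 h minus 2 h on the log2 scale. Vegfa was lower at 8 h by both probe sets, -0.76 and -1.10, after its early peak.

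Among regulators, Elob differed by 0.14, Cited2 by 0.41 (0.17 and not called by its other probe set, adjusted p = 0.458) and Cul2 by -0.35. Among targets outside glycolysis, Angptl4 differed by 1.72, Plin2 by -0.48, Tfrc by -0.24 and Ankrd37 by -0.53. Among glycolytic targets, Slc2a3 differed by 1.22, Aldoa by 0.49, Pgam1 by 0.26 and Tpi1 by -0.56. In the VEGF family, Nrp2 differed by 1.09, Nrp1 by 0.97 and Vegfc by 0.48, and Kdr, under 16 in both groups, is left out.

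The mean of the 9 tested mesenchymal markers was lowest at 2 h and highest at 8 h (mean log2 7.77 and 8.48). With their mean as a covariate the calls on Cited2, Tfrc, Angptl4, Ankrd37, Aldoa, Vegfc, Nrp2 and Nrp1 ended, and those on the other genes above remained. The ranges of that mean at 2 h and 8 h did not overlap, so the covariate cannot be separated from these groups.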

How the results depend on the processing

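No value of a tested member or list changed sign with a call under the alternatives run. Of 938 values of the tested members under the alternatives, 885 stayed on the same side of the threshold, 44 lost the call and 9 gained it. Fitting only the groups compared gave 2166 called probe sets in place of 3342 on withdrawal and 1241 in place of 1953 at 8 h against control, and the marker covariate gave 1952 in place of 4157 between 8 h and 2 h. Member probe sets called on withdrawal were 2 in place of 1 both without the 3 arrays and with that covariate. The Epas1 differences with 16 added before log2 were -1.22 on withdrawal, 0.31 at 2 h and 2.15 at 8 h of return, and 1.84 between 8 h and 2 h. Epas1 fell by 1.56 on withdrawal without the 3 arrays, and its 8 h minus 2 h difference was 2.16 with the covariate.

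Leaving out 1 array gave called counts of 2476 to 2986 on withdrawal, 2832 to 3764 at 2 h, 3837 to 4485 at 4 h, 3022 to 3591 at 8 h, 1312 to 1694 for 8 h against control, 3015 to 3355 for 8 h against 2 h and 6878 to 7833 for the F test. The member counts were 0 to 1, 3 to 4, 4 to 5, 2 to 3, 2 to 3, 2 to 3 and 6 to 7 in that order. Epas1 differences were -1.51 to -1.38, 0.34 to 0.43, 1.48 to 1.84, 2.38 to 2.5, 0.92 to 1.06 and 2 to 2.12.

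The labels link same-numbered arrays by the number alone, and whether they share a batch cannot be told from these values. Over 30 same-number pairs the correlation of deviations from group means was -0.138 to 0.389, and 8 were over 0.1. Its mean was 0.055, against -0.028 for pairs with other numbers. Of the 15 arrays, 6 correlated best with their own number. With the replicate number as a replicate block the called counts were 3520, 4291, 5047, 4129, 2047 and 4315 in the 6 comparisons, and the F test of Arnt had an adjusted p of 0.058.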
